A study of Rattus norvegicus with 44 samples.

Results

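Rat ovaries treated with FGF2, a fibroblast growth factor, were compared with untreated ovaries by whole-transcript microarray. The members were 17 arrays of the 44 in the series, namely the 3 FGF2 arrays and the 14 controls preprocessed with them. They were chosen by their labels, and the 6 arrays of a separate CTGF experiment were not used here. The FGF2 group was made of ovaries of 4-day-old pups kept in organ culture for 48 h with rat FGF2 at 50 ng/ml. The control group had the same age and culture and received no growth factor. The rats were Sprague-Dawley. A well held 2 or 3 ovaries from littermates, and the ovaries of a well made 1 sample. Controls were cultured beside 1 to 3 treatments at a time, and which arrays shared a culture day is not given in the sources used here. Another 21 arrays of ovaries treated with 1 of 7 other growth factors (AMH, BMP4, FGF7, GDNF, KITLG, LIF or PDGFab, each at the same dose) entered the statistical fit and a direct comparison. All 27342 probe sets of the arrays were tested.

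FGF2 binds tyrosine kinase receptors of the FGFR family together with heparan sulfate, and the receptors act largely through RAS and the kinases RAF, MEK and ERK. ERK switches on transcription factors of the ETS family, among them the Etv genes, and also the Dusp phosphatases and Sprouty proteins that damp the pathway again. In the neonatal ovary oocytes lie in primordial follicles, each wrapped in flat pregranulosa cells, and FGF2 is known as one of the local factors that move these follicles into growth. FGF7 uses a splice form of FGFR2 found in epithelia, whereas FGF2 is read by the forms of mesenchymal cells.

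ERK feedback genes and Etv genes, led by Dusp6, were among the probe sets that rose with FGF2, as were Pnoc, Tulp2 and other genes outside that pathway. With FGF2, 206 probe sets were higher and 51 lower at an adjusted p under 0.05 (limma, Benjamini-Hochberg over all probe sets), which is 0.753% and 0.187% of those tested. The higher ones had a median log2 change of 0.61 (0.27 to 2.35) and the lower ones a median of -0.47 (-1.31 to -0.27), and the median of all probe sets was -0.01. One gene symbol was available for 193 of the 257, which stand for 191 genes (161 higher, 30 lower). All 3 FGF2 arrays lay above the control mean for 204 of the 206, and below it for 51 of the 51. The calls were chosen on the same arrays by their difference from that mean, so these counts are no separate support. All FGF2 arrays lay above all 14 controls for 89 of the 206, and below them for 14 of the 51. Over all 27342 probe sets these counts were 191 (0.699%) and 58 (0.212%).

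FGF2 array 1 differed from the other FGF2 arrays in its cell type markers, and this touches most of the results. Markers of oocytes (18 genes such as Zp3, Gdf9 and Dazl, which encode an egg coat protein, an oocyte growth factor and a germ cell RNA-binding protein) had a mean log2 level of 7.45, 9.67 and 9.28 on FGF2 arrays 1 to 3. On the controls the same mean ran between 7.88 and 9.63 with a median of 9.23. FGF2 array 1 was thus below every control, and the lowest control was control 1, while controls 2 to 14 lay between 8.67 and 9.63. Pregranulosa markers (18 genes) averaged 7.13, 7.82 and 7.84 on the FGF2 arrays and 7.15 on control 1, against 7.51 to 8.25 on controls 2 to 14. Endothelial markers (15 genes) averaged 6.03, 6.68 and 6.77 with FGF2, against 5.96 on control 1 and 6.11 to 6.88 on the other controls.

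Markers of macrophages (16 genes) went the other way. They averaged 7.86, 7.19 and 7.02 on the FGF2 arrays and 7.78 on control 1, against 6.35 to 7.76 on controls 2 to 14. Control 1 also carried the most surface epithelium markers (14 genes), at 8.98, where the FGF2 arrays had 8.59, 8.23 and 8.37. In bulk samples such as these, fewer cells of a type and less RNA per cell cannot be told apart. Over all 27342 probe sets, the deviations of FGF2 array 1 and control 1 from their group means correlated at 0.74, a value for this pair of arrays. Low oocyte means were also found on KITLG array 1 (8.21) and LIF array 1 (8.33), where macrophage means were 8.05 and 8.02. On array 1 of the remaining treatments the oocyte mean was 8.81 (PDGFab), 9.14 (BMP4), 9.25 (GDNF), 9.32 (FGF7) and 9.42 (AMH). KITLG array 1 and LIF array 1 entered the comparison with the 7 other growth factors.

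**Figure D1:**
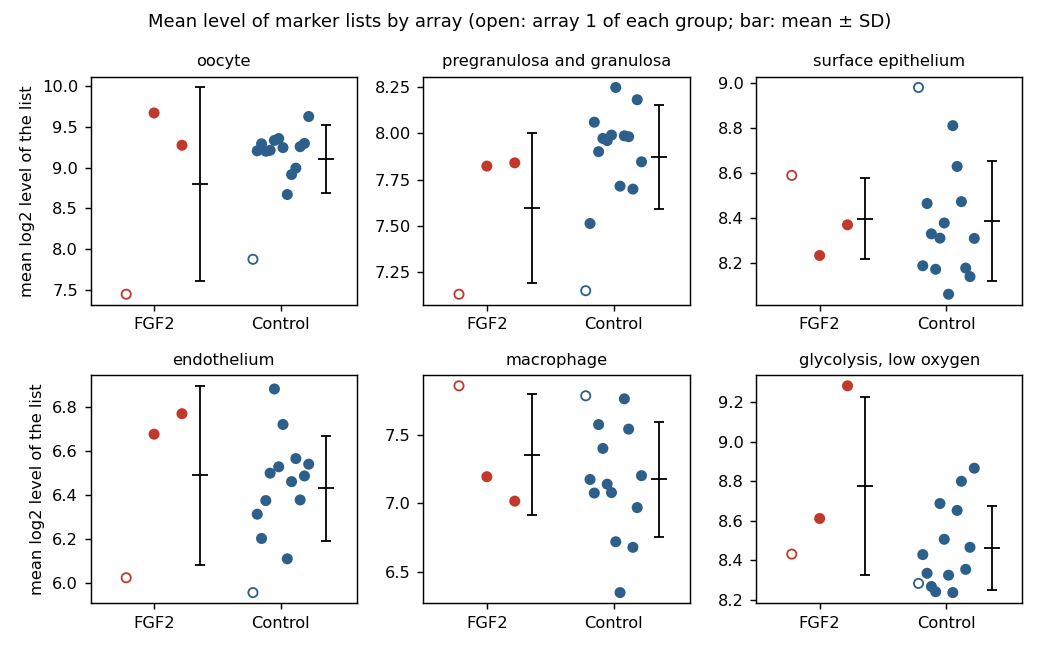
Mean log2 level of 5 marker lists and of the glycolysis list on each array of the FGF2 group (left, 3 arrays) and the control group (right, 14 arrays); open symbols are array 1 of each group and bars are the mean ± SD. FGF2 array 1 and control 1 had the lowest oocyte means, 7.45 and 7.88, and FGF2 array 3 had the highest glycolysis mean, 9.28.

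None of the 18 oocyte, 18 pregranulosa, 15 endothelial or 16 macrophage markers passed the test between FGF2 and controls (1, 3, 0 and 1 of them had an unadjusted p under 0.05). Their median log2 changes were -0.29, -0.25, 0.09 and 0.23, and without FGF2 array 1 they were 0.34, -0.03, 0.33 and -0.02. The calls of single genes depended on the same array. Without FGF2 array 1, 12 of the 257 calls held, and without array 2 or 3 there were 197 and 142. Without FGF2 array 1 and control 1 together, a setting chosen after these arrays had been seen, 22 held. For each gene whose levels are printed below, the adjusted p without FGF2 array 1 is therefore given where the call was lost. The part of the cell type markers in those calls was not tested. Array 1 had the highest of the 3 FGF2 levels for 156 of the 206 higher probe sets.

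Dusp6, the phosphatase that removes the activating phosphates from ERK, was the second largest rise. Its log2 levels were 11.39, 9.85 and 9.67 on the 3 FGF2 arrays, against a lowest of 7.70, a median of 7.97 and a highest of 9.18 on the 14 controls. All FGF2 arrays lay above all controls, as for 0.699% of all probe sets, and the highest control was control 1. The log2 change was 2.20 (SE 0.29, adjusted p = 9.81e-05), a 4.59-fold rise, and the exact two-sided permutation test gave the smallest p that 680 splits allow (0.00147). Without FGF2 array 1 the change was 1.65 (adjusted p = 0.0185), and without control 1 as well it was 1.74 (adjusted p = 0.00223).

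The promoter of Dusp6 is shown with that of Tulp2. Among the genes looked up with a promoter found, these were called higher after FGF2 than after FGF7 as well as than in controls. Other genes called in both comparisons, such as Rem1, Hsd11b1 and Slc29a1, were not looked up. Both windows are from RefSeq on GRCr8, run from 250 bases before to 50 after the start site, and are printed 5′ to 3′ on the gene's strand. Capitals mark the ETS core CGGAAG, searched on both strands so that CTTCCG counts as well. The Dusp6 window is chr7:35979354-35979653, plus strand, and the Tulp2 window is chr1:105098717-105099016, plus strand.
Dusp6: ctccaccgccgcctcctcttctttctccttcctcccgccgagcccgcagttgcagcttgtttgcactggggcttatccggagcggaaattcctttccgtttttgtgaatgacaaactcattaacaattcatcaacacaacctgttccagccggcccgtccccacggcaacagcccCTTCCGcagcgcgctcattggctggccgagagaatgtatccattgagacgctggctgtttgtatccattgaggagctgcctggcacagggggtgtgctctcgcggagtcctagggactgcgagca
Tulp2: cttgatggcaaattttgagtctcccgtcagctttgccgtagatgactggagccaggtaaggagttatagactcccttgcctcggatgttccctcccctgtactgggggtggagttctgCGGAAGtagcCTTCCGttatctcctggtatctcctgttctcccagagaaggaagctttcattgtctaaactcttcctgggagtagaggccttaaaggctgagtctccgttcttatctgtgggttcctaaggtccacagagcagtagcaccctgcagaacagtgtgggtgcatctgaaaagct
Counted from the start site, the core begins at -75 in Dusp6 and at -132 and -122 in Tulp2. Of all 33469 promoter windows of this length, 16.6% hold it. Promoters were found for 7 of 10 genes looked up (Dusp4, Dusp5, Dusp6, Spry1, Spry4, Etv1, Etv4, Etv5, Pnoc and Tulp2). The 2 windows shown were the only ones of the 7 with the core. The AP-1 letters TGANTCA (in 7.33% of all windows) and the CRE letters TGACGTCA (in 1.83%) were in none of the 7. A match describes the letters of the window and nothing about binding.

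Of the 21 measured ERK feedback inhibitors, 5 rose (23.8%, against 1.1% of all genes at 1 probe set per gene) and none fell (0.202% of all genes). The median log2 change of the list was 0.29, against 0.00 over all 14324 genes. Besides Dusp6 these were Dusp4, Dusp5, Spry4 and Spry1, that is, 2 more phosphatases and 2 Sprouty proteins, which act between the receptor and RAF. The mean level of the list was 8.01, 7.57 and 7.54 on the FGF2 arrays. It was 7.595 on control 1, above FGF2 arrays 2 and 3, and 7.09 to 7.47 on controls 2 to 14. Without FGF2 array 1 the list median was 0.21, and Dusp6 alone of the list passed. This list and those below were chosen with earlier results of these data known, so their shares of calls are descriptive.

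Spry4 had log2 levels of 7.97, 6.45 and 6.65 with FGF2, against 5.64, 6.04 and 6.55 (lowest, median and highest) in controls. A single control reached above the lowest FGF2 array. It rose by 1.00 (SE 0.20, adjusted p = 0.00733, or 0.332 without FGF2 array 1). Spry1 was more even, at 8.79, 8.46 and 8.41 with FGF2, against 7.42, 7.92 and 8.32 in controls, with no overlap between the groups. It rose by 0.63 (SE 0.13, adjusted p = 0.00733), and without FGF2 array 1 by 0.52 (adjusted p = 0.209).

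Dusp4, a phosphatase of the nucleus, had log2 levels of 8.41, 7.12 and 6.81 with FGF2, against 5.61, 6.003 and 7.35 in controls. Control 1, the highest, lay above FGF2 arrays 2 and 3. Dusp4 rose by 1.30 (SE 0.32, adjusted p = 0.0357, or 0.48 without FGF2 array 1). Dusp5, which binds ERK in the nucleus, rose by 0.69 (SE 0.15, adjusted p = 0.0169, or 0.435 without FGF2 array 1), with 8.01, 7.26 and 6.94 with FGF2, against 6.42, 6.66 and 7.14 in controls. Here too control 1 was the highest, and 4 controls lay above the lowest FGF2 array.

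The other 16 feedback genes did not pass the test. Errfi1, an inhibitor of the EGF receptor, came nearest, with 9.51, 9.17 and 9.38 with FGF2, against 8.66, 8.90 and 9.28 in controls (log2 change 0.44, adjusted p = 0.0541). Dusp1 had a log2 change of 0.46 (adjusted p = 0.322) and Spry2 one of 0.21 (adjusted p = 0.656). The lowest log2 change of the list was -0.09.

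The plot of levels by array shows 6 of the leading genes.

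**Figure D2:**
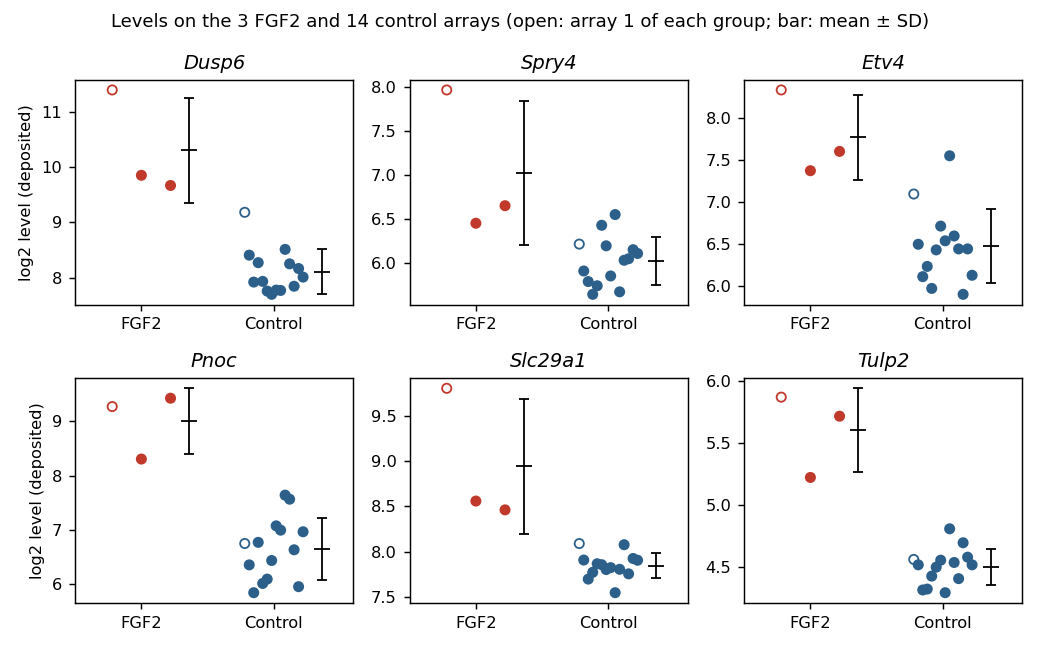
Log2 levels of Dusp6, Spry4, Etv4, Pnoc, Slc29a1 and Tulp2 on the 3 FGF2 arrays (left, red) and the 14 control arrays (right, blue); open symbols are array 1 of each group and bars are the mean ± SD. Dusp6, Pnoc, Slc29a1 and Tulp2 do not overlap between the groups, while 1 control lies above the lowest FGF2 array for Spry4 and for Etv4.

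Of the 19 measured ETS transcription factors 3 rose (15.8%, against 1.1% of all genes), all Etv genes, with a median log2 change of 0.16 for the list. Against the control mean the list median was 0.01, 0.04 and 0.10 on FGF2 arrays 1 to 3 and 0.08 on control 1. Without FGF2 array 1 the median change was 0.05 and no member passed. Etv4 had log2 levels of 8.33, 7.37 and 7.60 with FGF2, against 5.90, 6.44 and 7.55 in controls. It rose by 1.29 (SE 0.22, adjusted p = 0.00173, or 0.108 without FGF2 array 1), a 2.45-fold rise. Etv5 reached 7.71, 6.63 and 6.40, against 5.84, 6.06 and 6.70 in controls, so that 2 controls lay above the lowest FGF2 array. It rose by 0.82 (SE 0.17, adjusted p = 0.0146, or 0.431 without FGF2 array 1). Etv1 did not overlap between the groups, with 8.41, 8.24 and 8.06 with FGF2, against 7.32, 7.60 and 7.97 in controls. It rose by 0.63 (SE 0.12, adjusted p = 0.00378, or 0.118 without FGF2 array 1).

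Few genes at the start of the pathway passed, and few would at the share over all genes (1.1% higher, 0.202% lower). None of the 21 measured FGF ligands passed the test (4 had an unadjusted p under 0.05), and their median log2 change was -0.01. The mRNA of Fgf2 itself had log2 levels of 5.15, 4.43 and 4.32 with FGF2, against 4.06, 4.21 and 4.36 in controls (log2 change 0.43, adjusted p = 0.0532). Without FGF2 array 1 the change was 0.17 (adjusted p = 0.713). Fgf1 was high on FGF2 array 1 and on no other FGF2 array, at 6.22, 4.62 and 4.78, against 4.43 to 5.33 in controls (adjusted p = 0.281).

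Of the 4 FGF receptors none passed. Fgfr1, the main receptor of mesenchymal cells for FGF2, had 9.72, 9.19 and 9.26 with FGF2, against 8.95, 9.15 and 9.69 in controls (log2 change 0.22, adjusted p = 0.544). The log2 changes of Fgfr2, Fgfr3 and Fgfr4 were -0.02, -0.31 and 0.08 (adjusted p = 0.985, 0.649 and 0.845). Among the 16 receptors and co-receptors 1 rose (6.25%, against 1.1% of all genes), namely Sdc4, a heparan sulfate carrier that binds FGF2 at the cell surface. Sdc4 had 11.38, 10.94 and 11.28 with FGF2, against 9.67, 10.18 and 11.25 in controls (log2 change 0.91, SE 0.23, adjusted p = 0.0455, or 0.31 without FGF2 array 1). The range of the receptor list reached down to -0.85 for Flrt3, a membrane protein that binds FGFR1. Its levels were 7.22, 10.28 and 10.39 with FGF2, against 7.55 to 10.70 in controls, where the lowest was again control 1.

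Of the 23 measured genes for RAS, RAF, MEK, ERK and their adaptors none passed (1.1% of all genes were higher, 0.202% lower). At an unadjusted p under 0.05 there were 3, and the median log2 change was 0.01 (-0.21 to 0.32). The adaptor Shc4, which couples receptors to RAS, is not among the 23, because its probe set 10849423 has no symbol in the annotation used here and was named from the study's own annotation after its values were seen. It had log2 levels of 9.17, 6.93 and 6.79 with FGF2, against 5.17, 5.76 and 7.33 in controls, where control 1 was the highest and lay above FGF2 arrays 2 and 3. Its log2 change of 1.82 (SE 0.35, adjusted p = 0.00572, or 0.282 without FGF2 array 1) was the third largest of the called rises.

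Of the 28 immediate early genes, which respond to growth factors within minutes to hours, none passed after 48 h (against 1.1% of all genes). At an unadjusted p under 0.05 there were 6, and 23 of 28 were positive. The median log2 change of the list was 0.28. It was 0.59 on FGF2 array 1 against the control mean, 0.08 on array 2 and 0.01 on array 3, and control 1 stood at 0.32. The mean level of the list was 6.97 on FGF2 array 1 and 6.73 on control 1, the highest of their groups, and the part of the cells on these arrays was not tested.

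**Figure D3:**
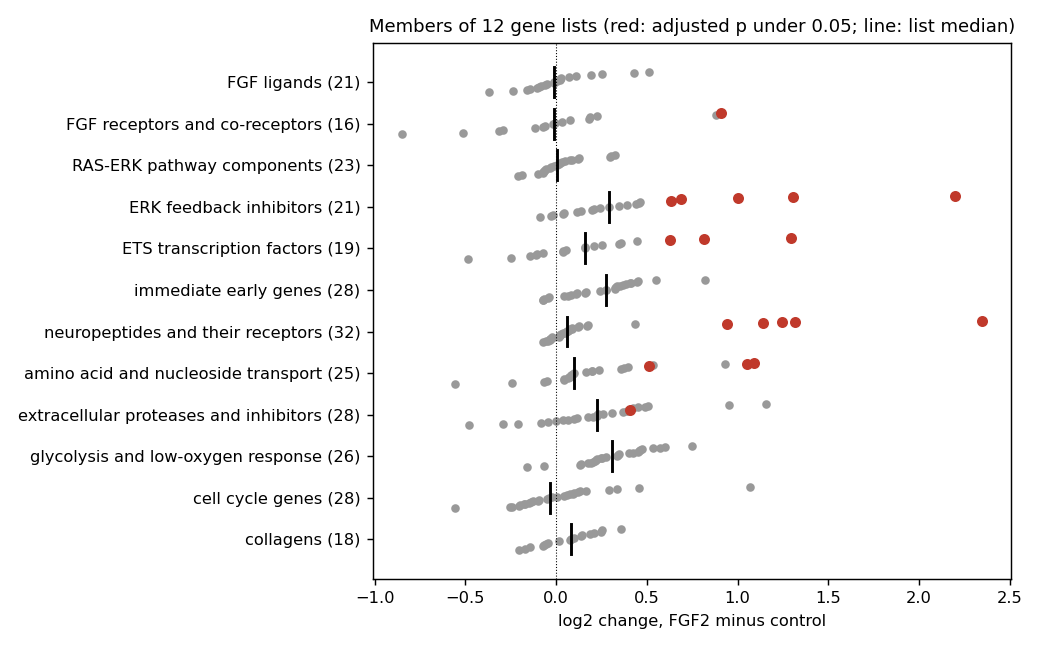
Log2 change, FGF2 minus control, of each measured member of 12 gene lists (number measured in brackets); red points passed the adjusted threshold, grey points did not, and the black line is the median of the list. The red points are most numerous among the ERK feedback inhibitors (5 of 21) and among neuropeptides and their receptors (5 of 32), and FGF ligands, RAS-ERK components, cell cycle genes and collagens have none.

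Peptide signalling held the largest rise of all. Pnoc, the precursor of the neuropeptide nociceptin, had log2 levels of 9.27, 8.30 and 9.42 with FGF2, against 5.85, 6.69 and 7.64 in controls. The groups did not overlap, and the highest of the 3 was array 3, not array 1. The log2 change was 2.35 (SE 0.35, adjusted p = 0.000421), a 5.09-fold rise, with the smallest exact permutation p (0.00147), and without FGF2 array 1 it was 2.21 (adjusted p = 0.0258).

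Another 4 of the 32 neuropeptide and receptor genes rose, giving 15.6% of the list (against 1.1% of all genes), whose median log2 change was 0.06. The list was chosen with earlier results of these data known, so its share is no independent test. Without FGF2 array 1 the list median was 0.03, and Pnoc alone of the list passed. Mchr1, the receptor for melanin-concentrating hormone, had 6.69, 5.74 and 6.17 with FGF2, against 4.30, 4.81 and 5.88 in controls (log2 change 1.32, SE 0.23, adjusted p = 0.00186, or 0.102 without FGF2 array 1). Mc2r, the receptor for adrenocorticotropic hormone, had 8.23, 6.73 and 6.85 with FGF2, against 5.28, 5.97 and 6.62 in controls (log2 change 1.24, SE 0.26, adjusted p = 0.0127, or 0.356 without FGF2 array 1).

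Adcyap1r1, the receptor of the pituitary peptide PACAP, had 7.76, 6.53 and 6.57 with FGF2, against 5.30, 5.82 and 6.27 in controls (log2 change 1.14, SE 0.20, adjusted p = 0.00273, or 0.198 without FGF2 array 1). Ramp1, a partner protein of the CGRP receptor, had 7.92, 7.42 and 7.39 with FGF2, against 6.16, 6.64 and 6.99 in controls (log2 change 0.94, SE 0.14, adjusted p = 0.000563, or 0.0522 without FGF2 array 1). For Mc2r, Adcyap1r1 and Ramp1 all FGF2 arrays lay above all controls, which held for 0.699% of all probe sets. Mc2r was also the 1 of 8 adrenal cortex markers that rose (12.5%, against 1.1% of all genes). The mean level of those 8 was 5.60, 5.04 and 5.03 with FGF2, against 4.75 to 5.23 in controls, and Star, the cholesterol carrier of steroid cells, had a log2 change of 0.55 (adjusted p = 0.129).

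Steroid and prostaglandin genes gave 1 call each (4.76% and 5%, against 1.1% of all genes). A single call says little about a list of this size. Hsd11b1, which regenerates active glucocorticoid, had 10.96, 9.93 and 9.61 with FGF2, against 8.37, 8.64 and 9.42 in controls. No control reached the FGF2 arrays, and the highest was control 1. The log2 change was 1.35 (SE 0.22, adjusted p = 0.00101, or 0.0885 without FGF2 array 1), and it was the only 1 of 21 steroid and glucocorticoid genes to pass, with a list median of -0.01. Ptgs2, the inducible enzyme of prostaglandin synthesis, rested more on array 1, with 8.43, 6.64 and 5.88 with FGF2, against 5.29, 5.57 and 6.29 in controls. Ptgs2 rose by 1.35 (SE 0.27, adjusted p = 0.00733, or 0.344 without FGF2 array 1), and the other 19 prostaglandin genes did not pass.

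Of 25 transporters of amino acids and nucleosides and amino acid response genes, 3 rose (12%, against 1.1% of all genes), with a median log2 change of 0.10 for the list, and Slc29a1 alone of the 3 held without FGF2 array 1. This list, too, was chosen with earlier results of these data known. Slc29a1, the nucleoside carrier ENT1, had 9.80, 8.56 and 8.46 with FGF2, against 7.55, 7.84 and 8.09 in controls. The groups did not overlap, the log2 change was 1.09 (SE 0.14, adjusted p = 8.29e-05), and without FGF2 array 1 it was 0.66 (adjusted p = 0.00133). Slc43a1, a carrier of large neutral amino acids, had 7.70, 6.73 and 6.93 with FGF2, against 5.84, 6.19 and 6.53 in controls (log2 change 0.92, SE 0.13, adjusted p = 0.000127, or 0.0264 without FGF2 array 1).

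Slc43a1 is not on the list, whose other 2 rises were Slc7a5, the light chain of a leucine carrier, and Slc7a2, a carrier of arginine and lysine. Slc7a5 had 9.36, 8.03 and 8.0 with FGF2, against 6.84, 7.39 and 8.12 in controls (log2 change 1.05, SE 0.22, adjusted p = 0.0133, or 0.383 without FGF2 array 1). Slc7a2 had 9.33, 8.89 and 9.40, against 8.39, 8.68 and 9.03 (log2 change 0.51, SE 0.11, adjusted p = 0.0159, or 0.222 without FGF2 array 1).

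Sod3, the superoxide dismutase of the extracellular space, had 7.47, 7.09 and 6.87 with FGF2, against 6.002, 6.32 and 6.52 in controls, with no overlap (log2 change 0.87, SE 0.12, adjusted p = 0.000127). Of the 257 calls, 9 held with each FGF2 array left out in turn. They were Dusp6, Pnoc, Tulp2, Slc29a1, Slc43a1, Sod3, the falling gene Bccip and 2 probe sets with no symbol. Probe set 10777232, 1 of these 2, which the study's annotation names Cd38, was nearly level among the FGF2 arrays at 7.99, 7.90 and 7.89, against 6.22, 6.70 and 7.22 in controls (log2 change 1.24, SE 0.14, adjusted p = 3.02e-06).

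Among the largest rises were also 2 more probe sets with no symbol in the annotation used here. Probe set 10922843 had 9.12, 6.76 and 6.80 with FGF2, against 5.35, 6.002 and 6.43 in controls (log2 change 1.58, SE 0.30, adjusted p = 0.00422, or 0.255 without FGF2 array 1). Probe set 10916476, named Ubash3b in the study's annotation, had 9.37, 7.51 and 7.19 with FGF2, against 5.72, 6.70 and 7.096 in controls (log2 change 1.44, SE 0.27, adjusted p = 0.00348, or 0.233 without FGF2 array 1). For both, all FGF2 arrays lay above all controls.

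Other large rises, of genes with a symbol, were those of Rem1, Il1r1, Nrgn, Upk1b and Ankh. Rem1, a small GTPase that restrains calcium channels, had 7.87, 6.16 and 5.81 with FGF2, against 4.77, 5.28 and 5.68 in controls (log2 change 1.34, SE 0.22, adjusted p = 0.00114, or 0.0708 without FGF2 array 1). Il1r1, the receptor of interleukin 1 and the 1 call among 24 cytokine and chemokine genes, had 11.08, 9.61 and 9.68, against 8.29, 8.63 and 9.64 (log2 change 1.32, SE 0.24, adjusted p = 0.00326, or 0.217 without FGF2 array 1). Control 1 was the highest control of Il1r1. As a single call Il1r1 made up 4.17% of its list, against 1.1% of all genes called higher.

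Nrgn, a calmodulin-binding protein best known from neurons, had 8.79, 6.83 and 6.35 with FGF2, against 5.57, 5.91 and 6.71 in controls (log2 change 1.32, adjusted p = 0.00668, or 0.316 without FGF2 array 1). Upk1b, a tetraspanin of epithelia, had 9.32, 8.04 and 8.62, against 6.50, 7.35 and 8.33 (log2 change 1.24, adjusted p = 0.026, or 0.356 without FGF2 array 1). Upk1b was the 1 call among 14 surface epithelium markers (7.14%, against 1.1% of all genes). Ankh, which passes pyrophosphate out of cells, had 9.77, 8.81 and 9.10, against 7.73, 8.04 and 9.65 (log2 change 1.13, adjusted p = 0.00659, or 0.218 without FGF2 array 1). For Nrgn, Upk1b and Ankh 1 or 2 controls lay above the lowest FGF2 array.

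Other lists held 1 or 2 rises each, where 1.1% of all genes rose, and 1 call says little about a list of this size. Bmp5, a ligand of the TGFB family, was the 1 call of 30 BMP and TGFB genes, with 5.82, 4.61 and 4.84 with FGF2, against 4.30, 4.37 and 4.52 in controls (log2 change 0.70, adjusted p = 0.00173, or 0.0974 without FGF2 array 1). Pdgfrb, the PDGF receptor of pericytes and smooth muscle, had 10.12, 9.82 and 9.86, against 8.80, 9.45 and 9.73 (log2 change 0.59, adjusted p = 0.0427, or 0.353 without FGF2 array 1). It was the 1 call of 12 smooth muscle and pericyte markers, of which 10 were positive, with a median of 0.20 (0.08 without FGF2 array 1). Their mean level was 7.32, 6.99 and 6.95 with FGF2, against 6.64 to 7.01 in controls, and their part in the call of Pdgfrb was not tested. Plat, a plasminogen activator, had a log2 change of 0.41 (adjusted p = 0.049, or 0.359 without FGF2 array 1), the 1 call among 28 extracellular proteases and inhibitors. Ifitm1 and Ifitm2, 2 membrane proteins of the interferon response, had log2 changes of 0.85 and 0.71 (adjusted p = 0.0276 and 0.0362, or 0.374 and 0.357 without FGF2 array 1). They were 2 of 22 measured interferon response genes (9.09%, against 1.1% of all genes), of which 11 were positive, with a median of -0.04 and a lowest change of -0.79, and the median was -0.22 without FGF2 array 1. The Ifitm genes are close copies of each other, so their probe sets may share signal, and 11 and 15 of the 21 arrays of other growth factors lay above the lowest FGF2 array for them.

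Several lists held no call by the brightest probe set of each gene, where 1.1% of all genes were higher and 0.202% lower. None of 28 cell cycle genes passed (2 at an unadjusted p under 0.05), and the highest was Ccnd1, the cyclin that carries growth factor signals into the cycle, at 9.17, 7.76 and 7.13 with FGF2, against 6.20, 6.88 and 7.99 in controls (log2 change 1.07, adjusted p = 0.0616). None of 18 collagens, 14 cholesterol synthesis genes, 29 EGF family and other growth factor genes or 37 Wnt and Notch genes passed (1, 1, 6 and 7 at an unadjusted p under 0.05). Glycolysis and low-oxygen genes, 26 in number, had a median log2 change of 0.31 and 24 of 26 positive, with no call (8 at an unadjusted p under 0.05). They were highest on FGF2 array 3, where the median was 0.79 above the control mean, against 0.01 and 0.15 on arrays 1 and 2. After each of the 7 other growth factors, too, array 3 had the highest mean level of the list. That mean was 9.30 on PDGFab array 3 and 9.28 on FGF2 array 3, and what arrays numbered 3 share was not tested. Aldoa, an enzyme of glycolysis, had 11.31, 11.09 and 11.63 with FGF2, against 10.62, 10.89 and 11.27 in controls (log2 change 0.47, adjusted p = 0.0626).

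The falls were smaller than the rises. Smpx, a small protein of striated muscle, fell the most, with 5.20, 5.9955 and 5.64 with FGF2, against 5.79, 6.96 and 7.46 in controls (log2 change -1.31, SE 0.22, adjusted p = 0.0016, or 0.0813 without FGF2 array 1). It was the 1 call of 9 skeletal muscle markers (11.1%, against 0.202% of all genes lower), whose median log2 change was -0.01. Pgf, a placental growth factor of the VEGF family, had 6.56, 7.13 and 7.37 with FGF2, against 7.20, 8.04 and 8.62 in controls (log2 change -0.96, SE 0.24, adjusted p = 0.0406, or 0.393 without FGF2 array 1), and the lowest control was control 1. Cntn3, an adhesion protein of the contactin family, had 6.24, 7.12 and 7.39, against 7.28, 7.82 and 9.11 (log2 change -0.95, SE 0.24, adjusted p = 0.0431, or 0.496 without FGF2 array 1).

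Bccip, which binds BRCA2, was the named fall that held with each FGF2 array left out. It had 8.60, 8.44 and 8.19 with FGF2, against 8.80, 9.19 and 9.79 in controls, with no overlap (log2 change -0.85, SE 0.15, adjusted p = 0.00173). Sptssa, part of serine palmitoyltransferase, which opens sphingolipid synthesis, had 9.30, 9.86 and 9.99, against 10.22, 10.51 and 11.11 (log2 change -0.81, SE 0.13, adjusted p = 0.00116, or 0.0947 without FGF2 array 1). The other 7 of the 12 largest falls have housekeeping roles: Rpa3 binds single-stranded DNA, Sec11c cleaves signal peptides, Mtif2 starts translation in mitochondria, Exosc8 belongs to the RNA exosome, Tomm20 imports proteins into mitochondria, Cetn3 is a centrin and Eif3e a translation initiation factor. Their log2 changes lay between -0.71 for Rpa3 and -0.47 for Eif3e. Of these 7, Eif3e alone kept its call without FGF2 array 1 (adjusted p = 0.0185), and Eif3e lost it without array 3 (adjusted p = 0.247).

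**Figure D4:**
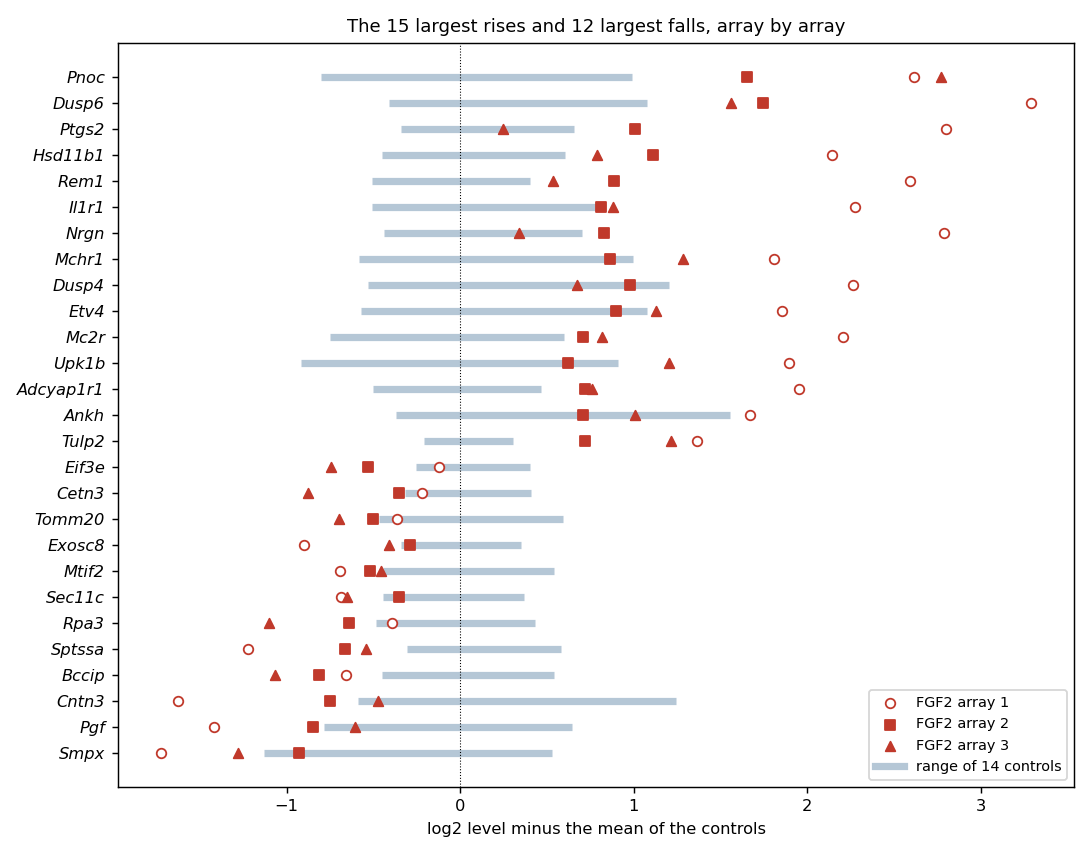
Log2 level minus the mean of the controls for the 15 largest rises and the 12 largest falls with a symbol, with 1 symbol for each FGF2 array (array 1 open) and a blue bar for the range of the 14 controls. FGF2 array 1 is the highest for 14 of the 15 rises, Pnoc being the exception, and array 1 or array 3 is the lowest for every fall.

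The direct comparisons ask which of these changes set FGF2 apart from the other growth factors, with no control in the contrast. Against the mean of the 7 others, 59 probe sets were higher with FGF2 (0.216% of those tested, 51 with a symbol) and 0 lower by limma, where 429 had a lower value at an unadjusted p under 0.05. Of the 59, 54 were also among the 206 higher than in controls, and these 2 contrasts share the FGF2 arrays. Of the 59, 2 held without FGF2 array 1, 50 without array 2 and 46 without array 3. Dusp6 was 2.00 log2 units higher with FGF2 than the mean of the others (SE 0.29, adjusted p = 0.000372), Pnoc 2.04 (SE 0.34, adjusted p = 0.00243) and Etv4 1.29 (SE 0.22, adjusted p = 0.00237). Spry1, Spry4, Etv1 and Etv5 also passed (0.66, 0.93, 0.57 and 0.84 log2 units, adjusted p = 0.00847, 0.0225, 0.0141 and 0.016), and Dusp4 and Dusp5 did not (adjusted p = 0.23 and 0.061).

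FGF7 is the other fibroblast growth factor of the study. Directly against FGF7, 13 probe sets were higher with FGF2 (0.0475% of those tested) and 0 lower by limma (394 lower at an unadjusted p under 0.05). A symbol was available for 10 of the 13, which included Dusp6 (2.09 log2 units, SE 0.38, adjusted p = 0.0236), Etv4 (1.52, SE 0.28, adjusted p = 0.0306), Rem1 (1.44, SE 0.28, adjusted p = 0.0373), Hsd11b1 (1.39, SE 0.28, adjusted p = 0.0464), Slc29a1 (0.97, SE 0.18, adjusted p = 0.0316) and Slc43a1 (0.81, SE 0.16, adjusted p = 0.0473). Selenop, a selenium carrier of plasma, was higher as well, by 0.64 (SE 0.13, adjusted p = 0.0473). The 3 FGF7 arrays had Dusp6 levels of 8.17 to 8.25, where the FGF2 arrays had 9.67 to 11.39 and the controls 7.70 to 9.18. Of the 13, 2 held without FGF2 array 1.

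PDGFab, a dimer of platelet-derived growth factor, gave the fewest calls of the 3 direct comparisons. Directly against PDGFab, 1 probe set was higher with FGF2 (0.00366% of those tested), that of Tulp2, and 0 were lower by limma (136 lower at an unadjusted p under 0.05). Dusp6 averaged 9.12 with PDGFab and was 1.19 log2 units higher with FGF2 (SE 0.38, adjusted p = 1), and Pnoc averaged 7.86 with PDGFab and was 1.14 higher with FGF2 (SE 0.45, adjusted p = 1). Hsd11b1 averaged 9.85 with PDGFab, a difference of 0.32 (SE 0.28, adjusted p = 1). With 3 arrays on each side these p-values do not show that the factors act alike.

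**Figure D5:**
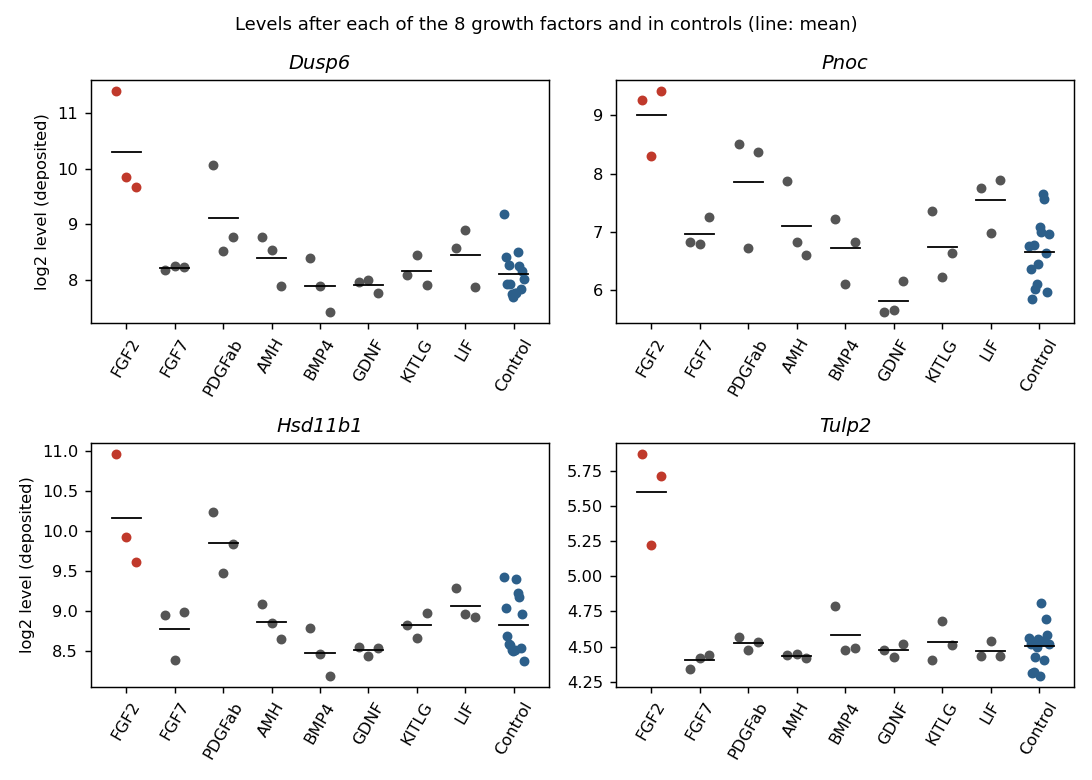
Log2 levels of Dusp6, Pnoc, Hsd11b1 and Tulp2 on each array after FGF2 (red, left), after the 7 other growth factors (grey) and in controls (blue, right), with a line at each mean. For Tulp2 the 3 FGF2 arrays (5.22 to 5.87) stand above all other arrays, of which the highest is a control at 4.81, whereas the PDGFab arrays come nearest to FGF2 for Dusp6 and Hsd11b1.

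Tulp2, a tubby-like protein known mainly from testis, had the smallest adjusted p of the 257 calls, at low levels. It had 5.87, 5.22 and 5.71 with FGF2, against 4.29, 4.52 and 4.81 in controls (log2 change 1.10, SE 0.09, adjusted p = 9.74e-09). The 21 arrays of the other growth factors had Tulp2 levels between 4.34 and 4.79, so no array without FGF2 reached the lowest of the 3. The differences were 1.2002 from FGF7 (SE 0.12, adjusted p = 6.14e-07), 1.08 from PDGFab (SE 0.12, adjusted p = 8.15e-06) and 1.11 from the mean of the 7 others (SE 0.09, adjusted p = 3.09e-09). Without FGF2 array 1 the change against controls was 0.97 (adjusted p = 4.83e-06).

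The remaining genes called against both controls and the 7 others included F2r, Emp1 and Anxa5. F2r, a thrombin receptor, had 9.33, 8.45 and 8.55 with FGF2, against 7.35, 7.82 and 8.49 in controls, where control 1 was the highest (log2 change 0.97, adjusted p = 0.00062, or 0.065 without FGF2 array 1). Emp1, a membrane protein of epithelia, had 10.02, 9.71 and 9.71, against 8.42, 8.90 and 9.66 (log2 change 0.96, adjusted p = 0.00422, or 0.113 without FGF2 array 1). Anxa5, which binds phosphatidylserine, had 11.12, 11.02 and 11.02, against 10.30, 10.49 and 10.87 (log2 change 0.55, adjusted p = 0.00118, or 0.0522 without FGF2 array 1). Emp1, Anxa5, Spry1, Etv1, Etv4, Sod3, Selenop and Mchr1 had no array of another growth factor above the lowest FGF2 array. Dusp6, Slc29a1 and Slc43a1 had 1 such array, and Pnoc, Rem1 and Hsd11b1 had 2.

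Cyp26b1, which breaks down retinoic acid, was high on a single array. Its levels were 7.63, 4.95 and 5.0045 with FGF2, against 4.52, 4.83 and 5.11 in controls and 4.43 to 5.01 after the other growth factors. It passed against controls (log2 change 1.06, adjusted p = 0.0376) and against the mean of the 7 others (1.18, adjusted p = 0.0267), and without FGF2 array 1 the change against controls was 0.17 (adjusted p = 0.76).

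None of the 12 largest falls passed the test against the mean of the 7 others by limma. Bccip was 0.02 higher than with FGF7 (SE 0.19) and 0.29 lower than the mean of the others (FGF2 minus others -0.29, SE 0.14, adjusted p = 0.998), and Rpa3, Tomm20 and Eif3e differed from that mean by -0.02, -0.01 and -0.08. Smpx and Pgf differed more, by -0.86 (SE 0.22, adjusted p = 0.0988) and -0.94 (SE 0.23, adjusted p = 0.0869).

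The criteria of the study's methods were an unadjusted p up to 0.05 (here from limma), linear means that differ by 10 or more, and their ratio not between 0.83 and 1.2. By them 1210 probe sets were higher (4.43% of those tested) and 646 lower (2.36%) with FGF2, and 246 of the 257 calls were among them. The study's own list of FGF2 probe sets is much shorter than this. It holds Etv1, Emp1, Sdc4, Anxa5, Bccip, Smpx, Pgf and the probe set named Cd38, among others. Dusp6, Pnoc, Tulp2, Etv4, Spry4, Slc29a1, Slc43a1 and Sod3 are not on it. The reason for these differences was not tested.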

How the data were processed

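Per the labels and the study's methods, the authors hybridised RNA to Affymetrix Rat Gene 1.0 ST arrays and processed the scans in Partek with RMA and an adjustment for GC content. The deposited values are log2 expression levels per probe set, and they were used with no further normalization. Normalization of this kind compresses differences at low levels, and levels were not compared between probe sets. The annotation used here gave 1 symbol to 15097 of 27342 probe sets, several to 323 and none to 11922. Names from the study's annotation were given to 3 called probe sets without a symbol, which entered no list.

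Groups were fitted together over 38 arrays by limma 3.58.1 (lmFit, eBayes), run under R 4.3.3, two-sided, with Benjamini-Hochberg adjustment over all probe sets for each contrast and a threshold of 0.05. All 3 direct comparisons were contrasts of the same fit. An exact permutation test over 680 splits was run for single genes. The number of arrays, 3 against 14, limits the precision, and arrays of a group are separate pools of ovaries. The SE comes from the spread shared by all groups. Tables were made with Python 3.11.15, and the fit was tested on simulated data.

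The named genes were the 15 largest rises and 12 largest falls with 1 symbol among the calls, list members that passed over all probe sets, FGF ligands and receptors, ERK feedback and Etv genes, and, chosen after values were seen, calls that held with each FGF2 array left out, calls against the 7 other growth factors and some further list members and called genes. Of the 21 gene lists and 14 marker lists, a gene with several probe sets was taken by the brightest. The members and lists were chosen with earlier results of these data known. The 6 arrays of the CTGF experiment, preprocessed apart, were left out. Alternatives were other fits, normalizations and tests, a filter on dim probe sets and each array left out.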

Additional observations from a re-analysis of the deposited data

How the results depend on the processing

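The number of probe sets called against controls (257, of which 206 higher, 51 lower) depended on how the spread was estimated and on FGF2 array 1. It was 35 (32 higher, 3 lower) with the FGF2 arrays and controls fitted alone, 13 and 18 by the methods' t-test with log2 or linear values after Benjamini-Hochberg, and 24 (18 higher, 6 lower) with FGF2 array 1 and control 1 left out together, an alternative chosen after seeing the data. The replicate numbers were not used as pairs in the main fit. The deviations of FGF2 and control arrays 1, 2 and 3 correlated at 0.74, -0.21 and 0.07. FGF2 array 1 reached at most 0.286 with controls 2 to 14. Whether arrays of the same number shared a culture day is not given, and a batch shared by arrays numbered 1, or by those numbered 3, was not tested. With the number as a replicate block, which uses controls 1 to 3 alone, 0 probe sets were called (0 higher, 0 lower, and 1834 at an unadjusted p under 0.05). Leaving out 1 array at a time gave 13 to 391 calls (9 to 313 higher, 4 to 113 lower), with 13 without FGF2 array 1, 364 without array 2, 201 without array 3 and 391 without control 1. The lower calls were 83 without control 2. The lower calls were also 123 with array quality weights and 78 after repeated quantile normalization.

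The lower probe sets that met the study's criteria (646) were 397 and 307 by the methods' t-test with log2 or linear values and 528 to 1250 with 1 array left out, and the higher ones (1210) were 960 to 1483. The calls in FGF2 minus FGF7 (13) were 5 after repeated quantile normalization, 4 without FGF2 array 1 and control 1, and 2 to 33 with 1 array left out (2 without FGF2 array 1, 8 without control 4 or 6, 7 without control 13, 33 without FGF2 array 2 or 3). Those in FGF2 minus PDGFab (1) were 3 with array quality weights, 2 without FGF2 array 1 and control 1, and 1 to 6 with 1 array left out. Those in FGF2 minus the mean of the 7 others (59) were 27 with array quality weights, 6 without FGF2 array 1 and control 1, and 2 to 78 with 1 array left out. The cause of these shifts was not tested. The direct comparisons could not be run with the FGF2 arrays and controls alone or with the replicate block.

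Among the single genes, none that passed changed direction under any setting run. Of those that did not pass, Spry2 had a log2 change of -0.069 without FGF2 array 1 and control 1 (-0.104 to 0.38 with 1 array left out), Fgfr4 -0.060 there and -0.063 with array quality weights (-0.067 to 0.16), Fgfr2 -0.23 to 0.16 and Flrt3 -1.39 to 0.19 with 1 array left out. With all probe sets of each gene in place of the brightest, 2 probe sets of Eno1 passed among the glycolysis genes. The number of arrays limits the precision.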

Other observations

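Among the called genes that belong to none of the lists above were several receptors for lipids, nucleotides and peptides, chosen here after their values were seen. P2ry1, a receptor for ADP, had log2 levels of 6.69, 6.48 and 6.13 with FGF2, against 4.69, 5.50 and 5.97 (lowest, median and highest) in controls, with no overlap (log2 change 0.92, SE 0.18, adjusted p = 0.00733). Lpar4, a receptor for lysophosphatidic acid, had 9.26, 8.78 and 8.68, against 7.68, 8.11 and 8.69 (log2 change 0.72, adjusted p = 0.0276). S1pr2, a receptor for sphingosine 1-phosphate, had 8.63, 7.75 and 7.83, against 7.12, 7.49 and 7.90 (log2 change 0.58, adjusted p = 0.0394). Aplnr, the apelin receptor, had 6.39, 5.31 and 5.91, against 4.89, 4.99 and 5.40 (log2 change 0.80, adjusted p = 0.00279), and Pth1r, the parathyroid hormone receptor, had 7.32, 6.74 and 6.83, against 6.05, 6.40 and 6.66 (log2 change 0.56, adjusted p = 0.00748). The adjusted p of these 5 without FGF2 array 1 was 0.175, 0.36, 0.586, 0.19 and 0.268, and of the 5 only Aplnr also passed against the mean of the 7 other growth factors (0.70, adjusted p = 0.0125).

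The rises below were also chosen after their values were seen, and they stand for no list. Itga1, the integrin subunit that binds collagen and laminin, had 9.42, 8.39 and 8.37 with FGF2, against 7.58, 7.89 and 8.19 in controls (log2 change 0.85, adjusted p = 0.00343, or 0.226 without FGF2 array 1). Itgb5, an integrin subunit that binds vitronectin, had 10.25, 9.67 and 9.91, against 9.00, 9.40 and 9.76 (log2 change 0.58, adjusted p = 0.0152, or 0.292 without FGF2 array 1). Cd151, a tetraspanin that pairs with integrins, had 10.89, 10.27 and 10.17, against 9.33, 9.66 and 10.18 (log2 change 0.75, adjusted p = 0.00949, or 0.277 without FGF2 array 1).

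Some list members moved far and did not pass. Lum, a matrix proteoglycan of stroma, had 7.47, 8.80 and 8.62 with FGF2, against 7.82, 9.45 and 9.96 in controls (log2 change -1.10, SE 0.30, adjusted p = 0.0661). Cd74, the invariant chain of antigen-presenting cells, had 7.71, 7.23 and 6.79, against 7.09, 8.33 and 9.99 (log2 change -1.08, SE 0.40, adjusted p = 0.223). Control 1 had 9.52, and all 3 FGF2 arrays lay below the control median. Mmp13, a collagenase, had 7.74, 6.59 and 7.21 with FGF2, against 4.80, 5.81 and 8.32 in controls (log2 change 1.16, SE 0.47, adjusted p = 0.278).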
